A study of Mus musculus with 6 samples.

Results

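Abat and Aldh5a1 encode GABA transaminase and succinic semialdehyde dehydrogenase, the consecutive mitochondrial enzymes that break down the amino acid GABA. They are 2 of 54352 rows in a gene expression table of mouse heart, found by their gene symbols, and both were among the 13094 genes with enough signal to test. The pair was chosen by values in these same data, namely the lower level of Abat in diabetic hearts: it had the smallest p of all genes in the authors' comparison of T2D empty vector with control hearts. Their levels relative to control hearts are therefore described here without a test, and the test is kept for the comparison between the diabetic groups. That comparison reuses the T2D empty vector libraries that entered the choice, so it is not fully independent of it.

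RNA from heart tissue of mice was sequenced in 6 libraries, in 3 groups of 2. Control mice were fed regular chow and had no transgene. The remaining mice, of strain C57BL/6, were 12 weeks old when diabetes was induced. They ate a diet in which fat gave 60% of calories and received 1 dose of 75 mg/kg streptozotocin, a toxin of the insulin-producing beta cells, and type 2 diabetes (T2D) was defined 20 weeks into the diet. Both diabetic groups received adeno-associated virus (AAV) by jugular injection at 16 to 18 weeks from the streptozotocin dose and were studied 4 weeks later, 5 to 6 months after induction. The virus was empty in the T2D empty vector group. In the T2D dnMCUb group it encoded FLAG-tagged dominant negative MCUb, a point-mutated form of a subunit of the mitochondrial calcium uniporter. Control thus differs from either diabetic group in diet, toxin and vector together, and these cannot be told apart. The strain of the control mice and the viral promoter are not given by the labels used here. The labels do not say that the libraries of a group were taken from different animals. The p-values therefore cover the spread among these libraries only, which may be technical.

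GABA transaminase moves the amino group of GABA to 2-oxoglutarate, which yields glutamate and succinic semialdehyde. Succinic semialdehyde dehydrogenase then oxidises the semialdehyde to succinate, a TCA cycle intermediate, with NAD+ as the electron acceptor. Together with GABA formation these steps make the GABA shunt, a side route around the 2-oxoglutarate dehydrogenase and succinyl-CoA ligase steps of the cycle. The shunt is best known from brain, where it ends the life of an inhibitory transmitter. GABA transaminase also acts on beta-alanine and is the target of the antiepileptic drug vigabatrin, and loss of Aldh5a1 function lets gamma-hydroxybutyrate build up.

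Abat (ENSMUSG00000057880.12) lies on the plus strand at chr16:8513429-8621568 of GRCm38, per the table. GENCODE M21 gives it 7 transcripts, of which 5 are protein coding, and the longest has 16 exons and 1500 coding bases. Aldh5a1 (ENSMUSG00000035936.6) lies on the minus strand at chr13:24907579-24937661 and has 1 transcript of 10 exons with 1569 coding bases. The table gives 1 value per gene, so transcripts of Abat cannot be separated.

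RefSeq's promoter table (GRCm38.p6) holds an entry for Aldh5a1. Its 250 bases upstream of the start, at chr13:24937662-24937911 on the minus strand, are shown because they are the stretch in front of the gene that also lies inside an antisense transcript described further on. The capitals mark the CCAAT box, the 1 match among the motifs searched.
Aldh5a1: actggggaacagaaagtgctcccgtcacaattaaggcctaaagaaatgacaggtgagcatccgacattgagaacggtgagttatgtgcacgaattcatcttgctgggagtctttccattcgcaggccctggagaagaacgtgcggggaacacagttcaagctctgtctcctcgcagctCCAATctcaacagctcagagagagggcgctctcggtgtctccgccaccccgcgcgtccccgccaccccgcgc
The window holds 17 CpG dinucleotides, against a median of 6 over all 32851 promoters of the table, and 12 of them lie in the 125 bases next to the start. Its GC content was 57.2%, with a median of 52.4% over all. The CCAAT match begins 72 bases before the start, and 33.8% of promoters hold 1 on either strand. No match was found on either strand for the other motifs. AGGTCA, the nuclear receptor hexamer, occurs in 14% of promoters. The E-box CACGTG occurs in 6.02% and the cyclic AMP response element TGACGTCA in 1.55%. The GC box GGGCGG occurs in 32.7%. The TATA box TATAAA occurs in 12.4%. These are matches of letters and not measured sites.

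Levels are regularized log (rlog) values on the log2 scale as the authors deposited them. The transformation shrinks differences, most of all for genes with few reads. Depth is unknown for every library because the values are not counts. Abat stood at 9.08 and 9.14 in control hearts, 8.44 and 8.32 with empty vector and 8.46 and 7.96 with dnMCUb. Every diabetic library was below both control libraries, the diabetic groups overlapped, and library 2 labelled dnMCUb was the lowest of all. Group levels were 9.11 ± 0.04 in control hearts, 8.38 ± 0.08 with empty vector and 8.21 ± 0.35 with dnMCUb (SD, n = 2).

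Aldh5a1 stood at 9.82 and 9.89 in control hearts, 9.69 and 9.72 with empty vector and 9.61 and 9.76 with dnMCUb. All 4 diabetic libraries were again below both controls, but over a total range of 0.27 rlog units, against 1.18 for Abat. Here library 1 labelled dnMCUb was the lowest, so the libraries with the least Abat and the least Aldh5a1 were not the same. Group levels of Aldh5a1 were 9.86 ± 0.05, 9.71 ± 0.02 and 9.69 ± 0.10 in the same order (SD, n = 2). Over the 6 libraries, which share groups, the genes had a Pearson correlation of 0.62, given as a description.

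**Figure D1:**
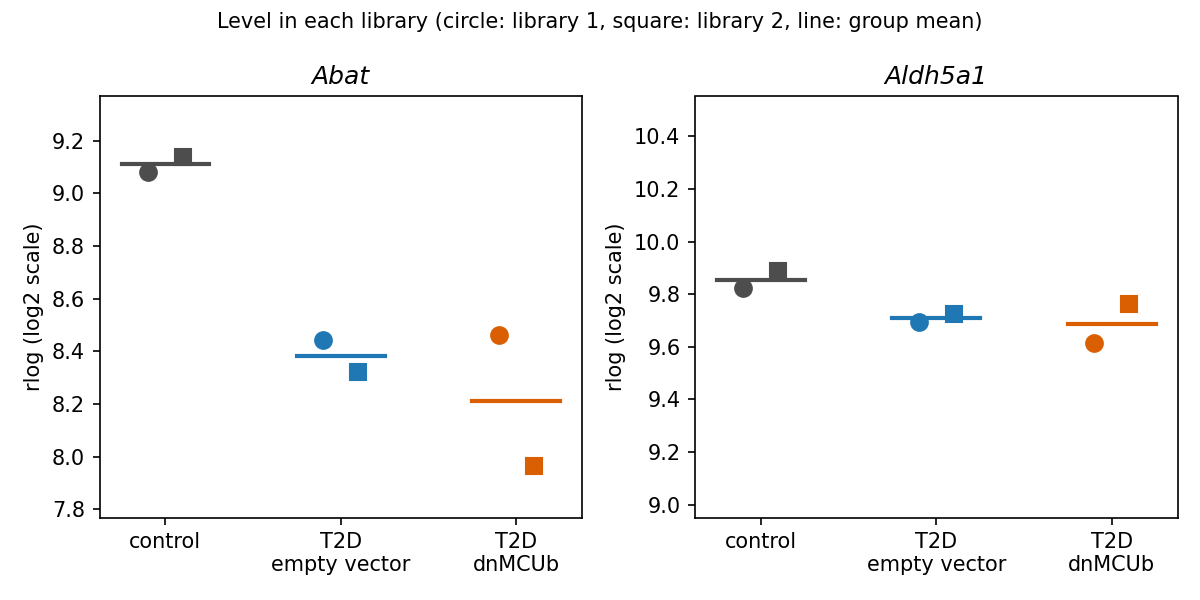
rlog level (log2 scale) of Abat and Aldh5a1 in each library, with circles for library 1, squares for library 2 and a line at each group mean, on vertical axes of equal span. The group means of Abat are 9.11 in control and 8.38 and 8.21 in the diabetic groups, while Aldh5a1 lies between 9.61 and 9.89 throughout.

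Relative to control, the rlog difference of Abat was -0.73 (SE 0.14) with empty vector and -0.90 (SE 0.14) with dnMCUb, with limma's standard errors from a fit of all 6 libraries. Among all 13094 genes tested, ordered by difference from the lowest, Abat was number 2 in both. For Aldh5a1 the differences were -0.15 (SE 0.06) and -0.17 (SE 0.06), numbers 207 and 317 in that order. These are side by side values, since both comparisons share the control libraries. Among all genes tested, both libraries lay below both controls for 22.5% with empty vector and for 22.7% with dnMCUb, and nothing is read from the members' being among them. The Abat difference in T2D dnMCUb rested unevenly on its libraries: it was -1.15 without library 1 and -0.65 without library 2. That of Aldh5a1 was -0.09 without library 1 and -0.24 without library 2.

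The authors' own fold changes are larger than rlog differences. In the authors' deposited table Abat had a log2 fold of -1.47 in T2D empty vector against control, which is 36.2% of the control level, with an adjusted p of 1.29e-17 and number 1 of 28255 genes by p. This is the value that led to the choice of the gene. In T2D dnMCUb against control the authors' deposited table gives -1.85, or 27.8% of control, with an adjusted p of 0.384 and number 295 by p. The larger fold thus came with the larger p, beside the wider spread between the libraries labelled dnMCUb. For Aldh5a1 the authors' deposited table gives -0.26 (83.4% of control, adjusted p 0.984) and -0.30 (81.2%, adjusted p 0.996), so Aldh5a1 did not pass in the authors' comparisons. Among genes with an adjusted p under 0.05 in the authors' deposited table, the rlog difference was a median 0.577 of the fold in T2D empty vector against control, and for Abat it was 0.497.

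Of all genes, 0.255% (72 of 28255) passed at an adjusted p of 0.05 in the authors' deposited table for T2D empty vector against control, and 0.357% (104 of 29159) for T2D dnMCUb against control. With limma on rlog values, 0 of 13094 genes (0%) passed in the first comparison and 9 (0.0687%) in the second. At an unadjusted p under 0.05 limma had 803 and 1497 genes.

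The comparison between the diabetic groups asks whether the dnMCUb vector moved either gene beyond the empty vector. Neither gene passed. Abat differed by -0.17 (SE 0.14, limma adjusted p = 0.916), with a 95% interval from -0.49 to 0.15. Aldh5a1 differed by -0.02 (SE 0.06, limma adjusted p = 0.970), with an interval from -0.16 to 0.11. The intervals are on the compressed rlog scale and include changes of either sign. In order of level the groups ran control, T2D empty vector, T2D dnMCUb for each gene, and the latter pair did not differ beyond the spread between libraries. In the authors' deposited table the log2 folds were -0.38 for Abat and -0.03 for Aldh5a1, each with an adjusted p of 1.

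That comparison gave few calls anywhere: limma called 0 of 13094 genes (0%), 739 had an unadjusted p under 0.05, and the authors' deposited table has 9 of 28906 (0.0311%). Groups did not overlap, in either direction, for 32.2% of genes tested, and overlapped for both members. The sign of each difference depended on 1 library. Without library 2 labelled dnMCUb the Abat difference was 0.08 (limma adjusted p = 0.574) and without library 1 it was -0.42 (adjusted p = 0.0761). For Aldh5a1 it was 0.05 without library 1 (limma adjusted p = 0.852).

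The level of Abat relative to Aldh5a1 compares the entry enzyme of the route with the enzyme after it. In rlog units, Abat minus Aldh5a1 was -0.74 and -0.75 in control hearts, -1.25 and -1.40 with empty vector and -1.16 and -1.80 with dnMCUb. The difference was more negative in every diabetic library than in either control. Group means were -0.75 ± 0.01 in control, then -1.33 ± 0.11 and -1.48 ± 0.45 in the diabetic groups (SD, n = 2). These values inherit the choice of Abat and carry no test. Per kilobase of gene model, with all 6 libraries averaged, Abat had a level of 6.37 and Aldh5a1 of 7.26 on the log2 scale. On that length-corrected scale 36.7% of genes tested lay below Abat and 55.5% below Aldh5a1.

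The libraries and their cell content were checked next. Cardiomyocyte markers were by far the highest, with a mean rlog over 8 of 8 tested markers of 16.97 and 16.91 in control hearts, 16.82 and 16.79 with empty vector and 16.63 and 16.86 with dnMCUb. In each diabetic group 6 of the 8 lay below both controls, against 22.5% of all genes tested with empty vector and 22.7% with dnMCUb. Their median differences from control were -0.16 with empty vector and -0.20 with dnMCUb. Those of Aldh5a1 were -0.15 and -0.17, and those of Abat -0.73 and -0.90. With empty vector 1 of the 8, Ryr2, lay above both controls (15.91 and 15.94 against 15.85 and 15.83). Of these markers, the contractile genes Myl2 and Mybpc3 passed as lower in the authors' deposited table for T2D empty vector against control, with log2 folds of -0.304 and -0.315. The others, Ryr2 included, did not pass in that comparison. In T2D dnMCUb against control the authors' deposited table has Mybpc3 as lower again (log2 fold -0.463, adjusted p = 0.0332). Myl2 did not pass there (-0.292, adjusted p = 0.839). Of 9 neuron and Schwann cell markers 4 were tested, with the neuronal Th and Snap25 at the table's minimum of -2.09 in every library but Dbh at a mean of 6.23 and Tubb3 at 5.03. Of the 9, 4 were higher in both libraries labelled dnMCUb than in either with empty vector, and 3 of the 9 were higher than in either control. Among all 13094 genes tested these counts were 2044 and 2646. Marker means ranged from 10.76 to 11.32 for fibroblasts, 10.99 to 11.10 for endothelial cells, 10.54 to 11.20 for smooth muscle and 9.07 to 9.34 for macrophages, each highest in library 1 labelled dnMCUb. Of 7 macrophage markers, 4 with empty vector and 6 with dnMCUb lay above both controls, and 0 lay below both. Of 7 fibroblast markers these counts above were 0 and 3, again with 0 below. Among all 13094 genes tested 2607 and 2646 lay above both controls. Atrial markers were high in control library 1 (mean 7.94, against 7.02 in library 2) and in library 1 labelled dnMCUb (8.60, against 6.90). With empty vector their means were 6.91 and 7.28. Nppa, a gene of that list, went the other way in control hearts, at 10.52 and 11.01. Red cell markers had a mean of 8.63 and 7.95 in control hearts, 7.93 and 7.96 with empty vector and 8.48 and 8.89 with dnMCUb. All 6 of them, including Slc4a1, which was too low to test, were higher in both libraries labelled dnMCUb than in either with empty vector (median difference 0.83). Among all 13094 genes tested 2044 were. This is the comparison in which the members were tested. Adipocyte and liver lists had 0 tested markers. On the first principal component, with 46.7% of variance, library 1 labelled dnMCUb stood at 10.8 and the others between -4.42 and 2.69. Mcub itself was at 5.62 and 5.47 in the libraries labelled dnMCUb and between 5.42 and 5.48 in the others (limma adjusted p = 0.888 against T2D empty vector), so directions involving that group rest on the label. The part of cell content in the members' values was not tested, and in bulk tissue fewer cells of a type and less RNA per cell cannot be told apart.

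Other genes of the route were read from 10 lists with 110 genes, of which 67 were tested. Over these 67 genes, 43 were lower and 24 higher in T2D empty vector than in control, with a median difference of -0.03 rlog units, against 0.00 (-0.00246) for all genes tested. Without control library 1 they were 36 and 31, with a median of -0.01. In T2D dnMCUb against control 42 were lower and 25 higher, with a median of -0.05. That median was -0.02 without control library 1, and without library 1 labelled dnMCUb 34 were lower and 33 higher, with a median of 0.00 (-0.00291). By limma 0 of the 67 passed in any of the 3 comparisons. Over all 13094 genes tested limma called 9 in T2D dnMCUb against control and 0 in each other comparison. The authors' deposited table called 3 of the 110, all higher in T2D dnMCUb than in control: Aldh1a1, Gabra3 and Cmpk2. Of all genes it called 104 of 29159 (0.357%) in that comparison. Differences of the listed genes ran from -0.20 to 0.27 in T2D empty vector against control, and that of Abat, -0.73, lay outside their range. Abat was chosen by its values in that comparison, so its place there inherits the choice and nothing is read from it.

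**Figure D2:**
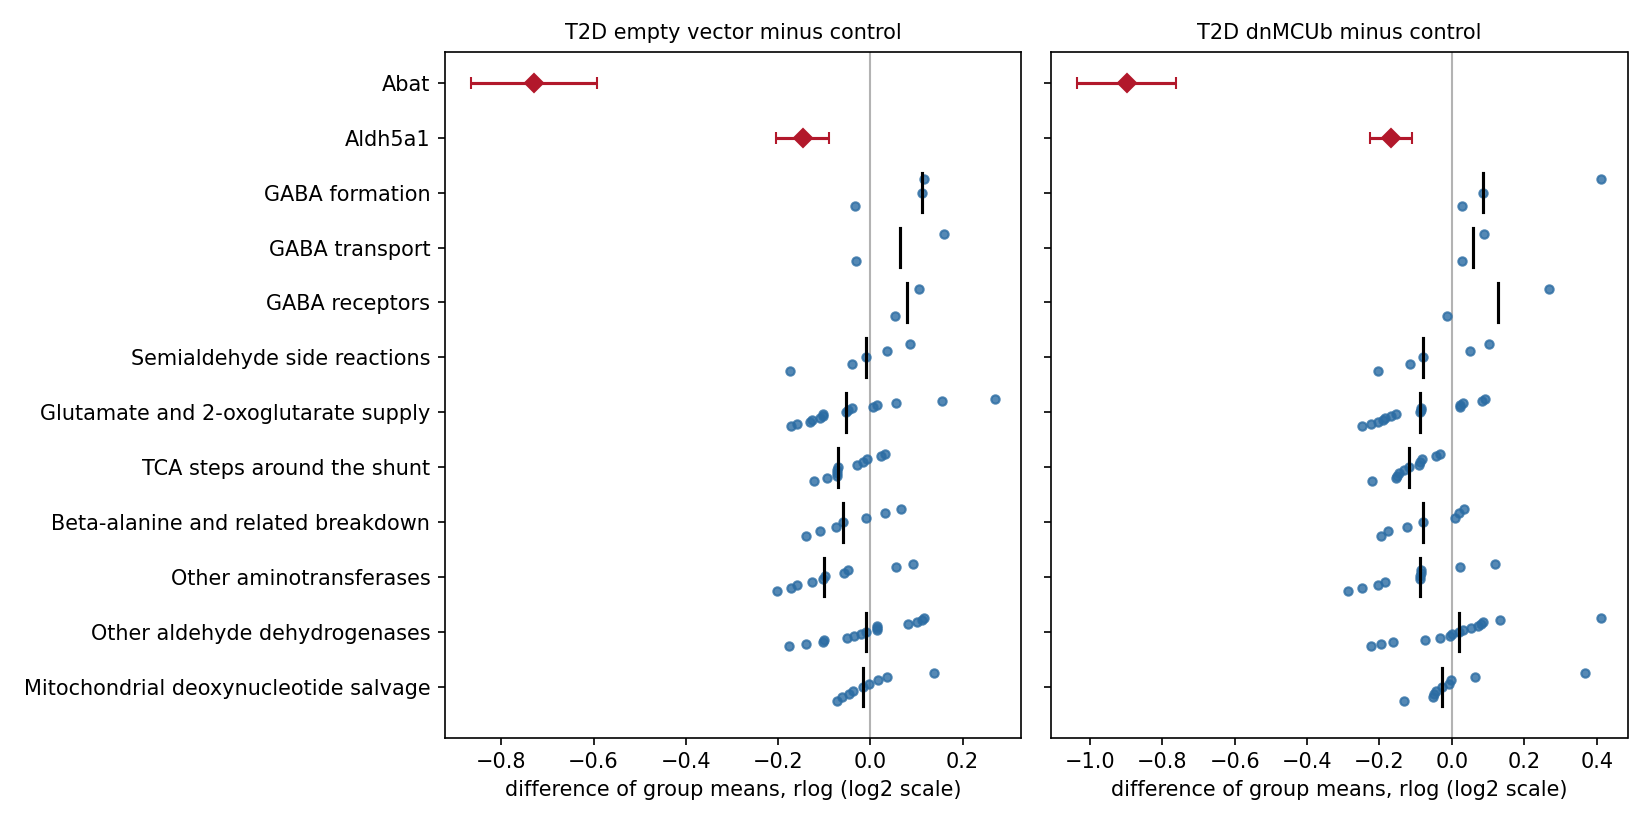
Difference of group means from control in rlog units (log2 scale) for Abat and Aldh5a1 (red, bars are limma's standard errors) and for the tested genes of 10 lists (blue points, black line at the list median). Abat, at -0.73 and -0.90, lies outside the range of all listed genes together, from -0.20 to 0.27 in the left panel and -0.29 to 0.41 in the right, while Aldh5a1 lies inside that pooled range but below every gene of several single lists. The place of Abat inherits its choice by values in these data.

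GABA is formed from glutamate by the decarboxylases Gad1 and Gad2, or from putrescine through amine oxidases and aldehyde dehydrogenases. Gad1 was at -1.37 and Gad2 at -2.09 in rlog, near or at the table's minimum, and neither was tested. The tested genes were those of the putrescine route. Aldh9a1, which oxidises gamma-aminobutyraldehyde, was at 8.76 and 8.73 in control hearts, 8.89 and 8.83 with empty vector and 8.80 and 8.86 with dnMCUb. Aldh1a1, a retinaldehyde dehydrogenase that can also act on aminobutyraldehyde, was at 9.23 and 9.14, 9.24 and 9.36, and 9.72 and 9.49 in that order. Its 3 groups did not overlap, and the order of groups ran opposite to that of Abat. Of all 13094 genes tested, 2607 were higher without overlap in T2D empty vector against control. These counts were 2044 in T2D dnMCUb against T2D empty vector and 2646 in T2D dnMCUb against control. In the authors' deposited table Aldh1a1 had a log2 fold of 0.79 in T2D dnMCUb against control (adjusted p = 0.00458), while limma did not call it (rlog difference 0.41, adjusted p = 0.129). Maob, a mitochondrial monoamine oxidase, overlapped between all groups at 10.16 to 10.36.

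Most genes for moving or sensing GABA were too low to test. Of 7 transporter genes 2 were tested, and the GABA transporter genes Slc6a11, Slc6a12 and Slc6a13 had rlog values under 1 in every library. Slc6a6, the taurine transporter, which can carry GABA weakly, was at 11.25 and 11.46 in control hearts against 11.52 and 11.51 with empty vector. Its difference of 0.16 (SE 0.07) did not pass (limma adjusted p = 0.806). Slc36a1, a proton-coupled amino acid transporter, lay between 5.58 and 5.65. Of 21 receptor genes 2 were tested. Gabra3, a subunit of the GABA-A receptor channel, was at 6.28 and 6.22 in control hearts, 6.32 and 6.40 with empty vector and 6.65 and 6.38 with dnMCUb. Against control, the authors' deposited table gave it a log2 fold of 1.47 in T2D dnMCUb (adjusted p = 0.0461), and limma did not call its rlog difference of 0.27 (adjusted p = 0.288). Gabbr1, a GABA-B receptor subunit, lay between 6.93 and 7.04.

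Succinic semialdehyde can leave the route by reduction to gamma-hydroxybutyrate, and hydroxy acids of this kind are oxidised back by dehydrogenases. The 5 genes of that list were all tested and none passed. Akr1a1, an aldo-keto reductase that can reduce the semialdehyde, was at 11.46 and 11.40 in control hearts, 11.54 and 11.50 with empty vector and 11.52 and 11.55 with dnMCUb. Its difference of 0.09 (SE 0.05) in T2D empty vector against control did not pass (limma adjusted p = 0.842). Akr7a5, a reductase of the same superfamily, overlapped between all groups and differed by -0.04 (SE 0.07).

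Glutamate and 2-oxoglutarate are the partners of the transaminase reaction. Of 15 tested genes that supply them, 10 were lower and 5 higher in T2D empty vector than in control (median -0.05), and none passed. Glul, glutamine synthetase, went the other way with 12.50 and 12.42 in control against 12.88 and 12.58 in T2D empty vector, and was at 12.52 and 12.56 in T2D dnMCUb. Its difference was 0.27 (SE 0.09, limma adjusted p = 0.786). Gpt, alanine aminotransferase, was at -0.17 (SE 0.07) and Got1, the cytosolic aspartate aminotransferase, at -0.16 (SE 0.08).

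The TCA cycle steps that the shunt passes by or feeds were lower with dnMCUb than with empty vector in all 11 tested genes, with a median of -0.06 rlog units, against 6606 lower of 13094 genes over all. None of the 11 passed by limma. That count rested on library 1 labelled dnMCUb: without it 3 of 11 were lower and the median was 0.05, and the 67 listed genes together went from 43 lower to 24 lower. In T2D empty vector against control 9 of 11 were lower (median -0.07), and 6 of 11 without control library 1. Ogdhl, a relative of the 2-oxoglutarate dehydrogenase subunit, was at 11.59 and 11.54 in control hearts, 11.50 and 11.38 with empty vector and 11.22 and 11.46 with dnMCUb. Sdhd, a membrane anchor of succinate dehydrogenase, differed by -0.09 (SE 0.09) in T2D empty vector against control, and Dld, the shared dihydrolipoamide dehydrogenase subunit, by -0.07 (SE 0.08).

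Since GABA transaminase also handles beta-alanine, breakdown genes for beta-alanine, pyrimidines and aminoisobutyrate were listed. Of 7 tested, 5 were lower in T2D empty vector than in control (median -0.06), 4 without control library 1, and none passed. Aldh6a1, methylmalonate semialdehyde dehydrogenase, was at 12.64 and 12.57 in control hearts, 12.53 and 12.40 with empty vector and 12.33 and 12.49 with dnMCUb. Hibch, a hydrolase of valine breakdown, was lower by a difference of -0.11 (SE 0.05) in T2D empty vector, with groups apart in all 3 comparisons (limma adjusted p = 0.806 for the first). Of all 13094 genes tested, 2942 were lower without overlap in T2D empty vector against control. These counts were 2167 in T2D dnMCUb against T2D empty vector and 2968 in T2D dnMCUb against control. Carns1, carnosine synthase, overlapped between groups.

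GABA transaminase has also been linked to salvage of deoxynucleotides in mitochondria. In that list of 9 tested genes the median differences from control were -0.02 with empty vector (-0.03 without control library 1) and -0.03 with dnMCUb. The latter was 0.00 (-0.000356) without control library 1 and 0.03, with 6 of 9 higher, without library 1 labelled dnMCUb. Cmpk2, a mitochondrial nucleotide kinase that is also an interferon-induced gene, was at 8.01 and 8.04 in control hearts, 8.10 and 8.23 with empty vector and 8.35 and 8.44 with dnMCUb. The authors' deposited table gave it a log2 fold of 0.95 in T2D dnMCUb against control (adjusted p = 0.0036), and limma an adjusted p of 0.0667. Sucla2, a succinyl-CoA ligase subunit, and Rrm2b, a ribonucleotide reductase subunit, were at -0.07 (SE 0.08) and -0.06 (SE 0.05) in T2D empty vector against control.

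Within its enzyme family Abat had the lowest difference of 11 tested aminotransferases in each of the 3 comparisons, and in level per kilobase it was 9th of the 11. Its ranks against control inherit the choice of Abat. Between the diabetic groups its rank rests on a difference of -0.17, which was 0.08 without library 2 labelled dnMCUb. The other 10 aminotransferases had a median of -0.10 in T2D empty vector against control, 8 of them lower, and -0.04 without control library 1. Kyat3, a kynurenine aminotransferase, came next at 9.34 and 9.19 in control hearts, 9.10 and 9.02 with empty vector and 8.95 and 9.01 with dnMCUb. Its difference of -0.20 (SE 0.06) did not pass (limma adjusted p = 0.721). Aldh5a1 was 2nd, 6th and 3rd lowest of 16 tested aldehyde dehydrogenases in T2D empty vector against control, T2D dnMCUb against T2D empty vector and T2D dnMCUb against control, and 7th in level per kilobase. The other 15 were split, with 8 lower and 7 higher in T2D empty vector than in control (median -0.01). Aldh1l1, a folate enzyme, was lowest there at -0.18 (SE 0.04, limma adjusted p = 0.581), with 6.50 and 6.54 in control hearts against 6.29 and 6.39 with empty vector.

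**Figure D3:**
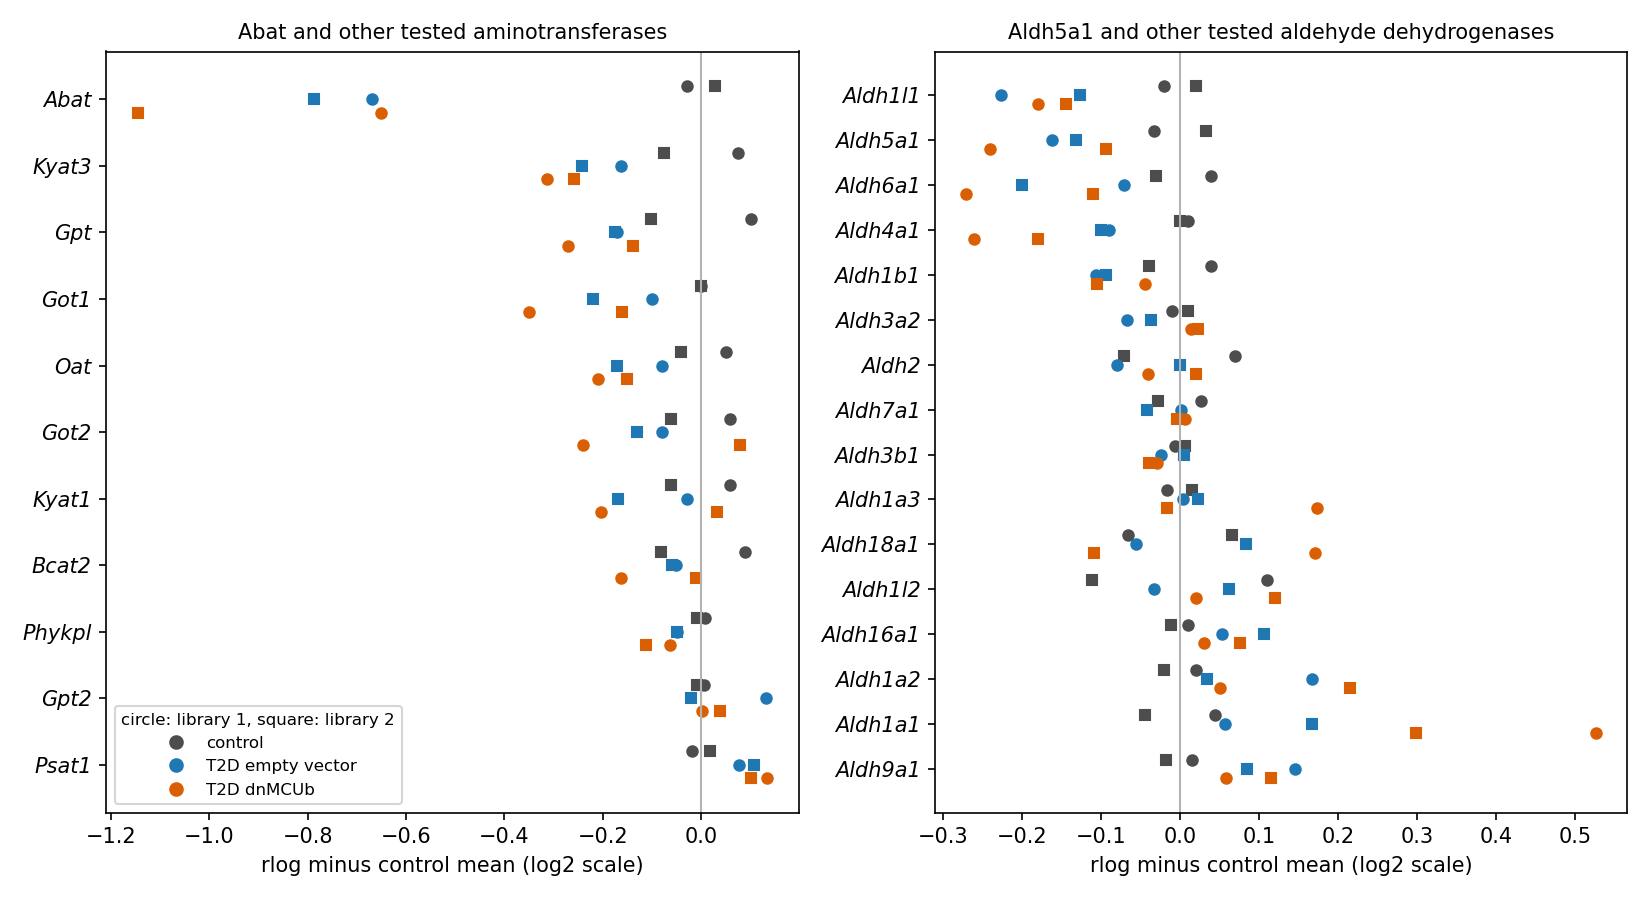
rlog minus the control mean (log2 scale) in every library for Abat with 10 other aminotransferases and for Aldh5a1 with 15 other aldehyde dehydrogenases, sorted by the T2D empty vector difference (circles library 1, squares library 2, colours by group). Abat at -0.73 is followed by Kyat3 at -0.20, whereas Aldh5a1 at -0.15 sits beside Aldh1l1 at -0.18 and Aldh6a1 at -0.14.

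The genes whose levels ran most like each member over the 6 libraries were sought among genes with a range of at least 0.5 rlog units, 205 for Abat and 206 for Aldh5a1. For Abat they were Arntl, a core clock transcription factor (Pearson r 0.98), Epha4, an ephrin receptor (0.97), Cpxm2 (0.96), the natriuretic peptide gene Nppb (0.90) and Armc2 (0.82). Arntl was at 8.40 and 8.35 in control hearts, 7.97 and 8.03 with empty vector and 8.09 and 7.78 with dnMCUb, so its lowest library was also library 2 labelled dnMCUb. Among the most opposite were Scd4, a fatty acid desaturase (-0.99), Rhobtb1 (-0.98), the acyl-CoA thioesterase Acot1 (-0.97) and Pdk4, a kinase that blocks pyruvate dehydrogenase (-0.97). Scd4 was at 8.49 and 8.35 in control hearts, 8.86 and 8.98 with empty vector and 8.93 and 9.26 with dnMCUb, highest in the library where Abat was lowest.

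For Aldh5a1 the closest were the alpha tubulins Tuba8 (0.95) and Tuba4a (0.92), Ndrg4 (0.90), Lrrc4b (0.90) and Doc2g (0.87). Tuba8 was at 11.41 and 11.62 in control hearts, 11.06 and 11.02 with empty vector and 10.98 and 11.23 with dnMCUb, low in the same library as Aldh5a1. The most opposite were the complement gene C4b (-0.98), Aebp1 (-0.89), the interferon-induced gene Ifi27l2a (-0.88), Vwf, the von Willebrand factor gene of endothelial cells (-0.88), and Snord17, a small nucleolar RNA (-0.86). C4b was highest, at 10.12, in library 1 labelled dnMCUb, the library that stands apart. The named genes of the members did not overlap. With 6 libraries in 3 groups such correlations are descriptions, and any gene that differs between control and the diabetic groups tends to score high.

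**Figure D4:**
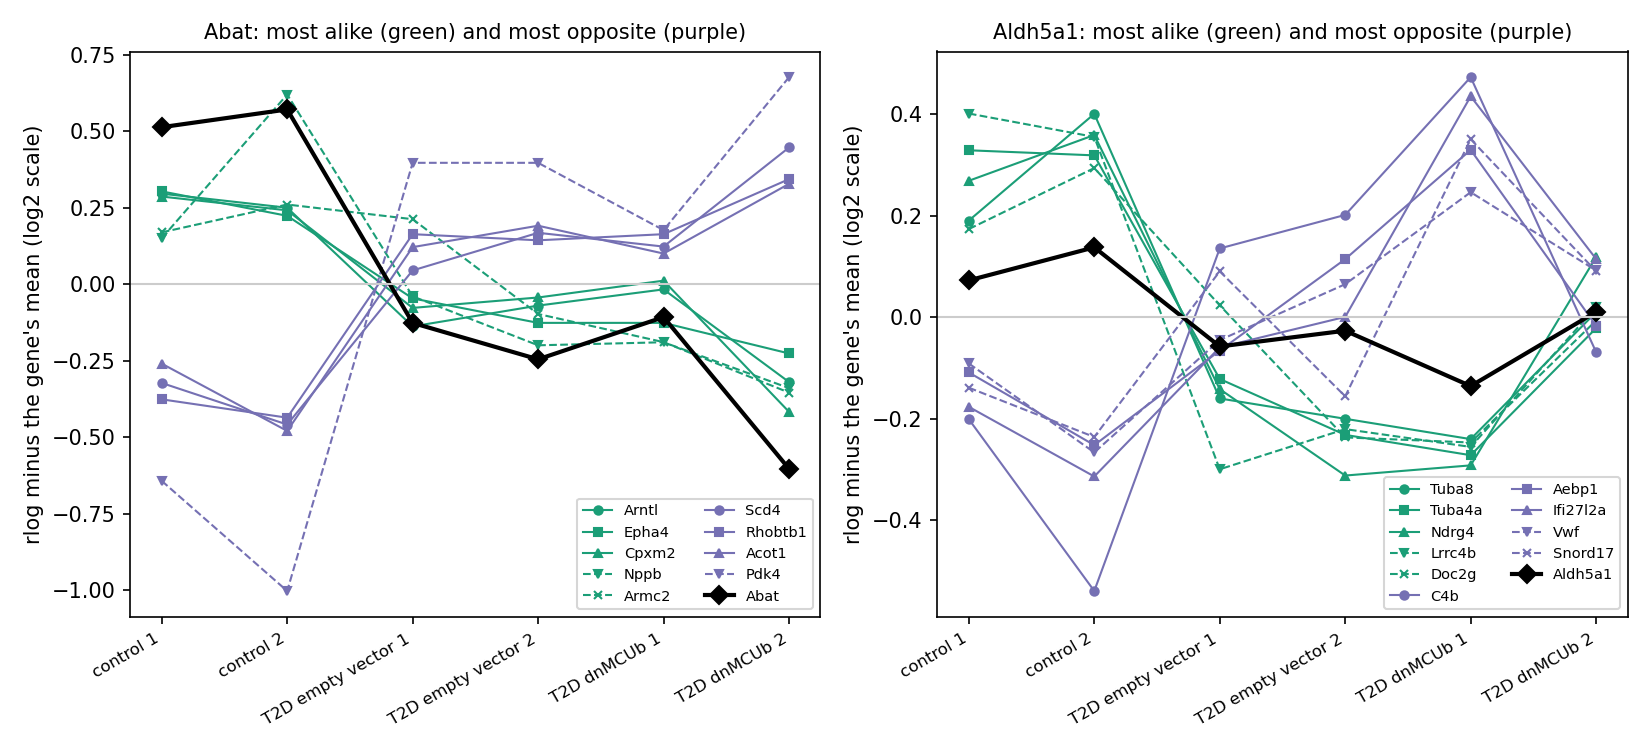
rlog minus each gene's mean over the 6 libraries (log2 scale) for Abat and Aldh5a1 (black) with the genes named as most alike (green) and most opposite (purple). Abat reaches its minimum in library 2 labelled dnMCUb, where Scd4 peaks at 9.26, and Aldh5a1 its minimum in library 1, where C4b peaks at 10.12.

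Neighbouring genes were read to see whether the members' differences extended along the chromosome. The nearest tested genes to Abat are Mettl22, 22745 bases below it, and Tmem186, 11661 bases above it. Mettl22 differed by -0.04 and Tmem186 by -0.07 in T2D empty vector against control, where Abat differed by -0.73. No gene in the table overlaps Abat.

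Aldh5a1 is overlapped by 9330162012Rik, a long noncoding RNA on the opposite strand at chr13:24937401-24941417, whose annotated type is a bidirectional promoter transcript. The genes share 261 bases at the start of Aldh5a1, of which 203 are exonic in both, out of 5647 exon bases of Aldh5a1. The promoter window printed above lies inside the span of the noncoding gene. Its level was 5.04 to 5.12 over the 6 libraries, with a difference of 0.03 in T2D empty vector against control, where Aldh5a1 differed by -0.15. The kit keeps strand, but the strand setting of the counting is not given in the sources used here, so reads from the shared bases cannot be told apart. The nearest tested genes that do not overlap Aldh5a1 were Tdp2 and Gpld1, with differences of 0.05 and 0.01.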

How the data were processed

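Total RNA was depleted of ribosomal RNA and made into stranded libraries, per the labels' protocols. Tools listed in the submitters' processing notes are STAR 2.5.2a, bcl2fastq 2.20.0.422 and DESeq2, with the builds GRCm38, mm10 and hg38 without their roles. The counting program is not given in the sources used here. The authors deposited rlog values (log2 scale) for 54352 genes, 22778 of them at 0 in all 6 libraries, with their own log2 fold, p-value and adjusted p-value per comparison. Symbols of 26 genes turned into dates were restored by identifier.

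Differences were estimated with limma 3.58.1 (R 4.3.3) with a mean-variance trend over the 13094 genes whose mean rlog was 5 or more, at an adjusted p of 0.05 by Benjamini-Hochberg. A single model held the 6 libraries and a coefficient per group, with 3 residual and 4.6 prior degrees of freedom. An exact permutation test of 2 against 2 cannot go below p = 0.333, so none was used. The fit was tested on simulated data. Level per kilobase is mean rlog minus log2 of the table's gene length.

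The members and lists were chosen with earlier results of these data known. Genes named are those called in any comparison, up to 3 per list with the largest difference between T2D empty vector and control, the 5 most alike and 5 most opposite by Pearson r, and neighbours. Some genes that this rule names are not reported here. Transporters and decarboxylases below the minimum were named after their values were seen, as were Myl2, Mybpc3 and single markers. List values without control library 1 and without library 1 labelled dnMCUb were added after seeing the data.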

Additional observations from a re-analysis of the deposited data

How the results depend on the processing

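Alternative fits used no filter, a minimum mean rlog of 7, no trend, only the groups compared, or a replicate block. These cannot change a difference of group means in this balanced design, so the members' differences stayed the same. Each library was also left out in turn, which could not reverse the sign against control, because every diabetic library lay below both controls. With median centring and with quantile normalisation Abat and Aldh5a1 stayed lower than control in both diabetic groups. With each library left out in turn, Abat ranged from -1.15 to -0.65 in T2D dnMCUb against control and from -0.42 to 0.08 against T2D empty vector, where the reversal, 0.0783, came without library 2 labelled dnMCUb. Aldh5a1 ranged from -0.2405 to -0.0942 and from -0.0941 to 0.0522, reversed at 0.0522 without library 1. The count of genes called by limma between T2D dnMCUb and control was unstable: 9 became 29 at a minimum of 7, and 0 with no filter, no trend, only those groups, median centring, quantile normalisation or the replicate block, and 0 to 743 with a library left out (89 without library 1 labelled dnMCUb, 743 without library 2, 1 without control library 2). Between the diabetic groups 0 became 14 without library 1 labelled dnMCUb, in a range of 0 to 14. Between T2D empty vector and control 0 became 30 with only those libraries in the fit, in a range of 0 to 30 (30 without either library labelled dnMCUb, 1 without control library 2). The cause of these shifts was not tested. Over genes, the deviations of library 1 from its group mean had correlations of -0.0876 between control and T2D empty vector and -0.0133 between control and T2D dnMCUb. Between the diabetic groups the correlation was -0.511. With 1 such deviation per group, these values cannot tell whether the numbers pair the libraries. With the replicate block the difference between the diabetic groups was -0.17 for Abat (limma adjusted p = 0.986) and -0.02 for Aldh5a1 (0.990). Depth is unknown, so its limit on the values could not be given.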
